A study of Mus musculus with 2 samples.

Results

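Cx3cr1 and 8 other receptors of chemokines and of the related attractant chemerin (Ccr1, Ccr2, Ccr3, Ccr7, Cxcr4, Ccrl2, Ackr3 and Cmklr1) were followed on mouse gene expression arrays. Each receptor was found by the RefSeq accession carried by its probes, which gave 10 probes for the 9 genes, of 20656 genes on the array that could be named in this way. The receptors were chosen by the log2 difference, IL-4 minus untreated, on these same arrays and by the flags for signal well above background, so their values are a description and were not tested. Macrophages grown from bone marrow (BMDMs) were left untreated or treated with IL-4 for 18 h, and 1 array was hybridised per condition. Both conditions used cells of male mice, 8 weeks old, that carried floxed alleles of Crif1 (Crif1 f/f). The study's methods name no Cre for these animals, and the cells had been differentiated with M-CSF, the growth factor that drives bone marrow cells to become macrophages. The dose of IL-4 used for the arrays and any pooling of animals are not given in the sources used here. The methods state for all experiments in general that they were done in independent replicates with several mice per group, without saying how this applies to the 2 arrays. With 1 array per condition there is no replicate check, so no difference below has a p-value, and the difference between the arrays holds any difference between the cultures.

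Chemokines are small secreted proteins that guide leukocytes. Their receptors cross the membrane in a bundle of helices and pass the signal to Gi proteins, while the atypical receptors (the Ackr genes and Ccrl2) bind a ligand without that signal and scavenge or present it. Macrophages use them to leave the bone marrow, to reach inflamed tissue and to stay there. IL-4 is a T helper 2 cytokine that activates macrophages in the alternative, or M2-like, manner through the transcription factor STAT6.

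After IL-4, the signal of Cx3cr1 was 8.81-fold lower, which was the lowest difference among the 12744 genes measured on both arrays. Ccr2, Cxcr4 and Ccrl2 were lower by 1.76- to 1.85-fold, and Ccr3, Ccr7, Ackr3 and Cmklr1 lay within 1.21-fold of the untreated value. Neither array had Ccr1 well above background, and it has no fold change. No receptor of the group was 2-fold higher. Cx3cr1 was thus the 1 receptor of the group past a 2-fold change, beside all 14073 genes that passed the background flag on 1 or both arrays, of which 3.35% were lower by 2-fold or more and 3.06% higher by 2-fold or more. These folds compare array signals scaled to each array's 75th percentile. In RNA of a whole culture, fewer cells that carry a receptor and less RNA per cell cannot be told apart.

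The promoters of the 4 receptors that were lower by more than 1.5-fold are shown, since these are the sequences nearest to the transcripts that differed. Each runs 5′ to 3′ on the gene's strand from 250 bases before to 50 bases after the transcription start that RefSeq gives on GRCm38.p6. Cx3cr1 lies on the minus strand at chr9:120068247-120068546, Ccr2 on the plus strand at chr9:124101933-124102232, Cxcr4 on the minus strand at chr1:128592250-128592549, and the most upstream of 3 entries for Ccrl2 on the minus strand at chr9:111057469-111057768. Capitals mark a match to TATAAA, the core of the TATA box, on either strand.
Cx3cr1: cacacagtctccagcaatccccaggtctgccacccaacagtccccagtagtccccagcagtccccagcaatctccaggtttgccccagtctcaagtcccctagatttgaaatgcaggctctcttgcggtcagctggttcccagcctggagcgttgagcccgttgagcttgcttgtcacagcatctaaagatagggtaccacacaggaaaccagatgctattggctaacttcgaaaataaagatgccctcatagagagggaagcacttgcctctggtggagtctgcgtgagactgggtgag
Ccr2: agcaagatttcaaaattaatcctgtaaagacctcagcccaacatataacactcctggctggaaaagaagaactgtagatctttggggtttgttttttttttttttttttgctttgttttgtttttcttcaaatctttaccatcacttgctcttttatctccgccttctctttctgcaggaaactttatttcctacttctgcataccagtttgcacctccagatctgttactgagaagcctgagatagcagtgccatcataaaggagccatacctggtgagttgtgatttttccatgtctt
Cxcr4: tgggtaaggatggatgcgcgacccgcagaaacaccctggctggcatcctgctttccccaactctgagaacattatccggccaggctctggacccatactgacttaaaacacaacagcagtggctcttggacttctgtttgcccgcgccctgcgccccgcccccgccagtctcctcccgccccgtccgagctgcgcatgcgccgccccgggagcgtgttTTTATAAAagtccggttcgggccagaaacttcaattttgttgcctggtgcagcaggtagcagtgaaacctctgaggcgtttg
Ccrl2: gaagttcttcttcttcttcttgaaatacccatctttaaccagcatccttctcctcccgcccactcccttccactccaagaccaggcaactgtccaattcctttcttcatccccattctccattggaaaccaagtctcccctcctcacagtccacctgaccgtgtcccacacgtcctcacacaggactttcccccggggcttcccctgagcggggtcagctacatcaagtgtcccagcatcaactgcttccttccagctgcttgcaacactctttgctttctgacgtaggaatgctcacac

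Of the 9 receptors, 8 had a promoter entry, in 10 windows of 300 bases. Ccr7 had none. The letters TTC and GAA with 4 bases between them, the spacing that STAT6 is known to prefer, were found in 0 of the 10 windows and in 6.95% of all 32851 promoters searched in the same way on both strands. With 3 bases between TTC and GAA, a spacing that other STAT proteins bind, the letters were in 0 of the 10 windows and in 8.30% of all promoters. A putative STAT6 site that the study names in a human promoter also has 3 bases between them. TATAAA was in the windows of Cxcr4 and Ackr3, and in 13.6% of all promoters. The Cxcr4 window held it on both strands in overlapping letters, from 32 to 25 bases before the start. GAGGAA, the core that the myeloid factor PU.1 binds, was in the windows of Ccr1, Ccr3 and Cmklr1 and in 28.3% of all promoters. The Cx3cr1 window was 54.3% G and C, that of Cxcr4 59.3%, that of Ccrl2 53.0% and that of Ccr2 38.0%, with a median of 52.7% over all promoters. A match is only a run of letters in a short window, and the absence of one says nothing of sites elsewhere.

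Each array held 43020 spots for genes, of which 59.8% were well above background in the untreated sample and 57.4% in the IL-4 sample. No spot was saturated. The 75th percentile of the IL-4 array was higher by 0.10 on the log2 scale, so the scaling makes a gene that was lower with IL-4 slightly lower, and a gene that was higher slightly less so, than the plain ratio of its intensities. The cells carried the macrophage markers Adgre1 (F4/80, 23816 untreated and 28655 with IL-4) and Csf1r (the M-CSF receptor, 146026 and 166510). All 6 macrophage markers on the array were well above background on both arrays. Of these, 4 were lower with IL-4. Adgre1 and Csf1r were slightly higher by their brightest probes, by less than the error of 0.20 propagated from the scanner software's estimates. A dimmer Csf1r probe was at -0.11, so Csf1r has no clear direction. The M2 marker Arg1, which makes arginase, rose from 84.9 to 19688. All 4 M2 markers listed rose by more than 2-fold, beside 3.06% of all genes that passed the background flag on 1 or both arrays.

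Cx3cr1 is the receptor for fractalkine and marks patrolling monocytes, microglia and other resident macrophages. It had 2 probes. The brighter probe gave an intensity of 12033 ± 1203 in the untreated sample and 1464 ± 146 with IL-4, where the error is the one that the scanner software gives for a spot. The dimmer probe gave 1959 ± 196 untreated and 206 ± 21.5 with IL-4. Both probes were well above background on both arrays, and both were lower with IL-4 by far more than these errors. The log2 differences were -3.14 (propagated software error 0.20) and -3.35 (0.21), or 8.81-fold and 10.2-fold lower.

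Both Cx3cr1 probes are printed once, so the spread of a difference between spots was also read from probes of similar brightness that are printed in 10 spots. Over 60 such probes near the brighter Cx3cr1 probe, the log2 difference, IL-4 minus untreated, of each spot had a median SD between spots of 0.05. Among 1992 probes of similar signal, the middle of the differences was 0.03 and the range from the 5th to the 95th percentile ran from -0.41 to 0.50, so both Cx3cr1 probes lay far outside it. That range is over different genes and does not stand in for replicate cultures. The similar-signal comparison was chosen after values were seen.

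**Figure D1:**
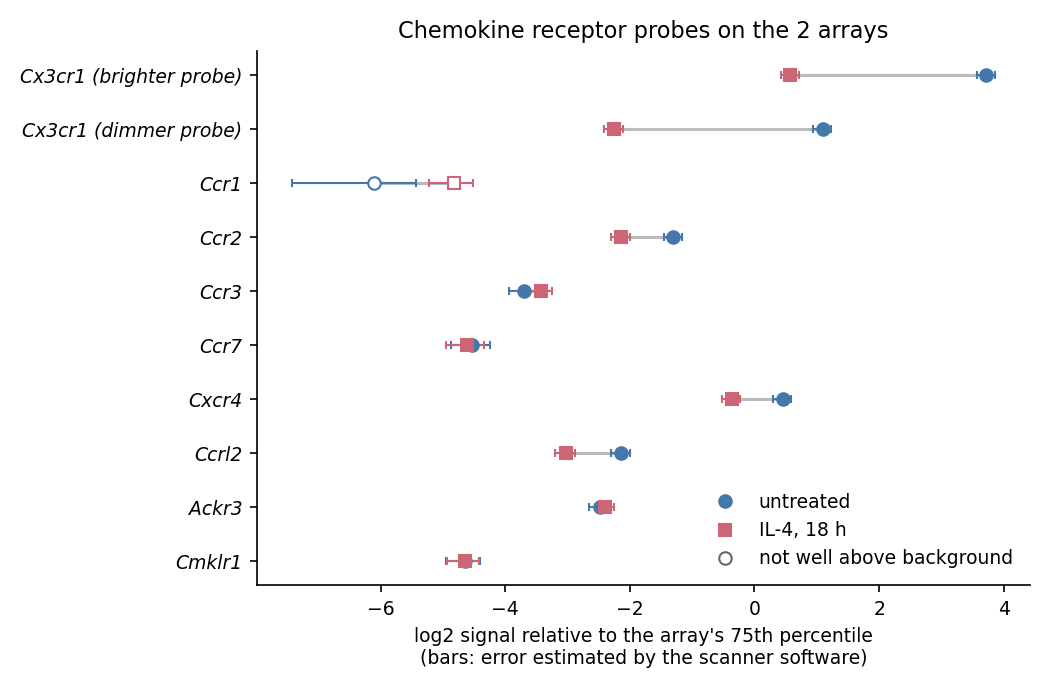
Signal of the 10 probes of the 9 receptors on the untreated array (blue circles) and the IL-4 array (red squares), as log2 intensity relative to each array's 75th percentile. Bars are the scanner software's error, and open symbols were not well above background. The 2 Cx3cr1 probes have the widest gaps, -3.14 and -3.35. Compare within a row, since probes differ in brightness for the same amount of RNA.

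Ccr2, Cxcr4 and Ccrl2 formed a second tier. Ccr2 is the receptor through which monocytes leave the bone marrow and follow Ccl2, Ccl7 and Ccl12. Its intensity was 371 ± 37.9 untreated and 222 ± 23.4 with IL-4, a log2 difference of -0.84 (propagated error 0.21), or 1.79-fold lower. The 5th percentile of probes of similar signal was -0.57, and 2.39% of the genes measured on both arrays had a difference as low or lower.

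Cxcr4 holds leukocytes and their precursors in the bone marrow through its ligand Cxcl12. It gave 1254 ± 126 untreated and 762 ± 76.5 with IL-4, a log2 difference of -0.82 (0.20), or 1.76-fold lower. Probes of similar signal had a 5th percentile of -0.47, and 2.57% of genes were as low or lower.

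Ccrl2 is an atypical receptor that binds chemerin and presents it to cells that carry Cmklr1. Its signal went from 207 ± 21.5 to 120 ± 13.2, a log2 difference of -0.89 (0.22), or 1.85-fold lower, where the 5th percentile of similar probes was -0.74 and 2.07% of genes were as low or lower. All 3 of these receptors were below the 5th percentile of their similar probes, by less than their own software error for Ccrl2. None of them passed 2-fold.

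In all, 4 of the 8 receptors measured on both arrays were lower by 1.5-fold or more and none was higher by as much. Over all genes measured on both arrays, 5.27% were lower and 5.03% higher by 1.5-fold or more, and at 2-fold the shares were 1.44% lower and 2.31% higher. The median difference of the 8 receptors was -0.46, beside -0.01 over all genes. The 1.5-fold line was drawn after the values were seen, and since the receptors were picked with these values known, the gap from the background is a description of the choice. The 1.5-fold count rests on how the arrays are scaled: with the spike-in controls as the reference it was 1 receptor in place of 4.

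**Figure D2:**
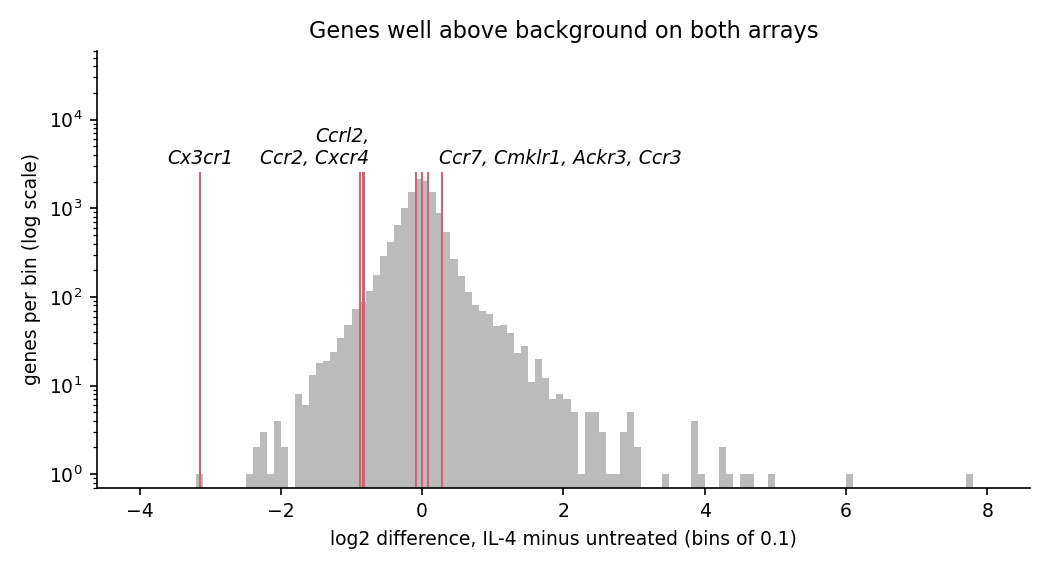
Number of genes (log scale) in bins of the log2 difference, IL-4 minus untreated, for the 12744 genes measured on both arrays. Red lines mark the 8 receptors measured on both arrays. Cx3cr1 stands alone at -3.14, Ccrl2, Ccr2 and Cxcr4 sit between -0.89 and -0.82, and the other 4 lie within the central peak.

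Ccr3, Ccr7, Ackr3 and Cmklr1 were measured on both arrays with differences no larger than their propagated errors. Ccr3, the eotaxin receptor of eosinophils, gave 70.4 ± 10.5 untreated and 91.4 ± 12 with IL-4, a log2 difference of 0.28 (0.29). Ackr3, which takes up Cxcl12 and so competes with Cxcr4, gave 164 ± 18.1 and 186 ± 20.0, a difference of 0.08 (0.22). These are within the 5th to 95th percentile of similar probes, which ran from -1.05 to 0.69 for Ccr3 and from -0.70 to 0.56 for Ackr3. The sign of both turned negative when the background was corrected by normexp (-0.15 and -0.08).

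Ccr7 brings dendritic cells into lymphatic vessels and lymph nodes. It was dim, at 39.7 ± 8.43 untreated and 39.9 ± 8.26 with IL-4, a log2 difference of -0.09 (0.43). Cmklr1, the signalling receptor for chemerin, was as near to its floor, at 36.5 ± 6.85 and 39.0 ± 6.77, a difference of -0.00 (0.37). The lowest intensity that passed as well above background on the arrays was 29.2 untreated and 27.9 with IL-4, so both receptors were read just above it. The sign of Ccr7 and of Cmklr1 changed among the ways of processing, and neither has a direction. Both differences were smaller than their propagated errors. These errors are estimates for a spot, leave out the spread between cultures and set no limit of detection.

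Ccr1 binds Ccl3 and Ccl5, and in mice also Ccl6 and Ccl9. Its probe gave 13.3 ± 7.96 untreated and 34.5 ± 8.34 with IL-4. Neither value passed as well above background, so no fold is given. The software did mark its spot as brighter than background by a weaker criterion on both arrays. The median pixel of the spot was 83 untreated and 98 with IL-4, beside a median of 57 on each array over 153 negative control spots, whose highest values were 82 and 80.5. Both spots were thus above the highest negative control of their array, the untreated one by a single unit.

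**Figure D3:**
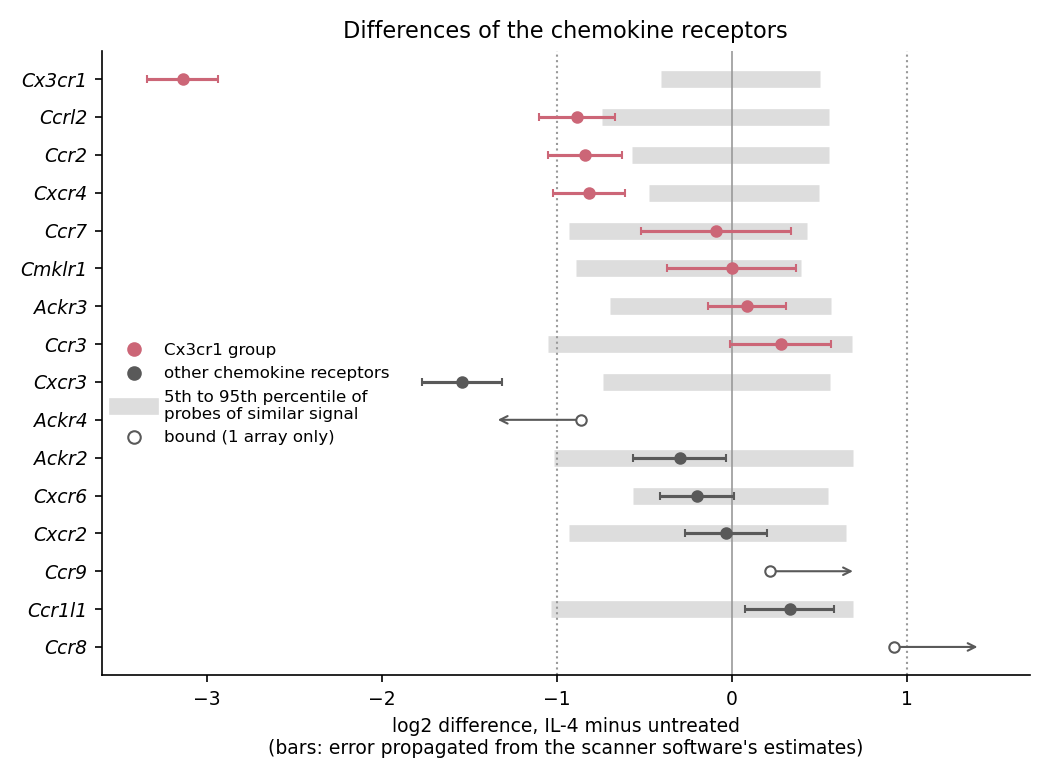
Log2 difference, IL-4 minus untreated, of chemokine receptors that gave a difference or a bound, with the propagated software error as bars. Grey bands are the 5th to 95th percentile of probes of similar signal, dotted lines are 2-fold changes, and open circles with arrows are bounds for genes well above background on 1 array only. Cx3cr1 and Cxcr3 (-1.54) are the receptors beyond the 2-fold line.

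The family outside the group held 17 further receptors, of which 16 were on the array under a RefSeq accession. Signal passed the background flag on both arrays for 6 of them, for 1 in the untreated sample only, for 2 with IL-4 only and for 7 on neither. Cxcr3, the receptor for interferon-induced chemokines on T helper 1 cells, was the 1 of them past 2-fold. Its intensity was 271 ± 28.1 untreated and 99.6 ± 12.1 with IL-4, a log2 difference of -1.54 (0.23), or 2.92-fold lower. Ackr2, Cxcr6, Cxcr2 and Ccr1l1 lay between -0.30 and 0.33. Of all genes that passed the background flag on 1 or both arrays, 3.35% were lower and 3.06% higher by 2-fold or more.

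Ccr8, a receptor of T helper 2 and regulatory T cells, was well above background with IL-4 only (6.36 untreated, 59.5 with IL-4) and at least 1.90-fold higher by its brighter probe. The bound for Ccr8, 0.93 on the log2 scale, shrank to 0.62 in other ways of processing. The other Ccr8 probe did not pass on either array. Ackr4, an atypical receptor that takes up Ccl19 and Ccl21, was well above background in the untreated sample only (47.3 and 6.43), which made it at least 1.82-fold lower with IL-4. The bound for Ackr4, -0.86 on the log2 scale, shrank to -0.46 in other ways of processing. Over the 14 receptors of the whole family measured on both arrays the median difference was -0.21. Of these, 5 were lower by 1.5-fold or more and none was higher by as much, beside the 5.27% and 5.03% of all genes, but 4 of the 5 were the receptors chosen by this difference and the other was Cxcr3. With spike-in scaling 3 of those 4 were short of 1.5-fold.

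Many of these genes are neighbours. On the RefSeq map of GRCm38.p6, 15 of the 25 receptors on the array lie on chromosome 9, among them Cx3cr1, Ccrl2, Ccr1, Ccr2 and Ccr3. Cxcr6, Xcr1, Ccr1, Ccr1l1, Ccr3 and Ccr2 follow each other there as coding genes with none between them. In that run Ccr2 was at -0.84, while its neighbour Ccr3 was at 0.28. Cx3cr1 lies apart from the run, between Xirp1 and Ccr8. Xirp1 passed the background flag on neither array, and Ccr8 was at least 1.90-fold higher by the bound given above, which shrank in other ways of processing. The next genes on each side that were measured on both arrays were Csrnp1 (1284 untreated and 2244 with IL-4, a log2 difference of 0.71) and Slc25a38 (1922 and 2018, -0.03). Of the 4 coding genes within 3 places of Cx3cr1 that gave a difference or a bound, none was 2-fold lower. Over all genes that passed the background flag on 1 or both arrays, 3.35% were that low, so a count over 4 genes says little. These neighbours were looked up after the values were seen.

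Ligands of the receptors were read next, from a list of 17 genes with 16 on the array. Of the 14 measured on both arrays, 5 rose by at least 2-fold and 0 were 2-fold lower, with a median of 0.43. Over all genes measured on both arrays, 2.31% were higher and 1.44% lower by 2-fold or more. The ligand list was written with earlier results of these data known, so the count is a description. The Ccr2 ligands rose together. Ccl2 went from 3827 to 34828 (log2 difference 3.09, 8.49-fold), Ccl7 from 1912 to 29310 (3.84, 14.3-fold), and Ccl12 from 132 to 1024 (2.86, 7.26-fold). On the same arrays their receptor Ccr2 was at 371 and 222. The eotaxin Ccl24, a ligand of Ccr3, rose from 34.2, just above the floor, to 1094 (4.90, 29.9-fold, and down to 3.26 on the log2 scale in other ways of processing). Ccr3 differed by 0.28 with an error of 0.29. Ccl4 rose from 1217 to 3580 (1.46, 2.75-fold).

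The other ligands measured on both arrays stayed within 2-fold. Cx3cl1, the fractalkine that Cx3cr1 binds, gave 2060 ± 206 untreated and 2649 ± 265 with IL-4, a log2 difference of 0.26 (0.20), so the large difference of Cx3cr1 stood beside a small one of the opposite sign in its ligand. Cxcl12 gave 45374 and 42182, a difference of -0.20 (0.20) whose sign turned under some scalings. Rarres2, which encodes chemerin, gave 635 and 932 (0.45, error 0.20). Ccl3, Ccl5, Ccl6, Ccl8, Ccl9 and Mif lay between -0.08 and 0.54. Ccl11 was well above background with IL-4 only, near the floor, and Ccl19 on neither array.

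**Figure D4:**
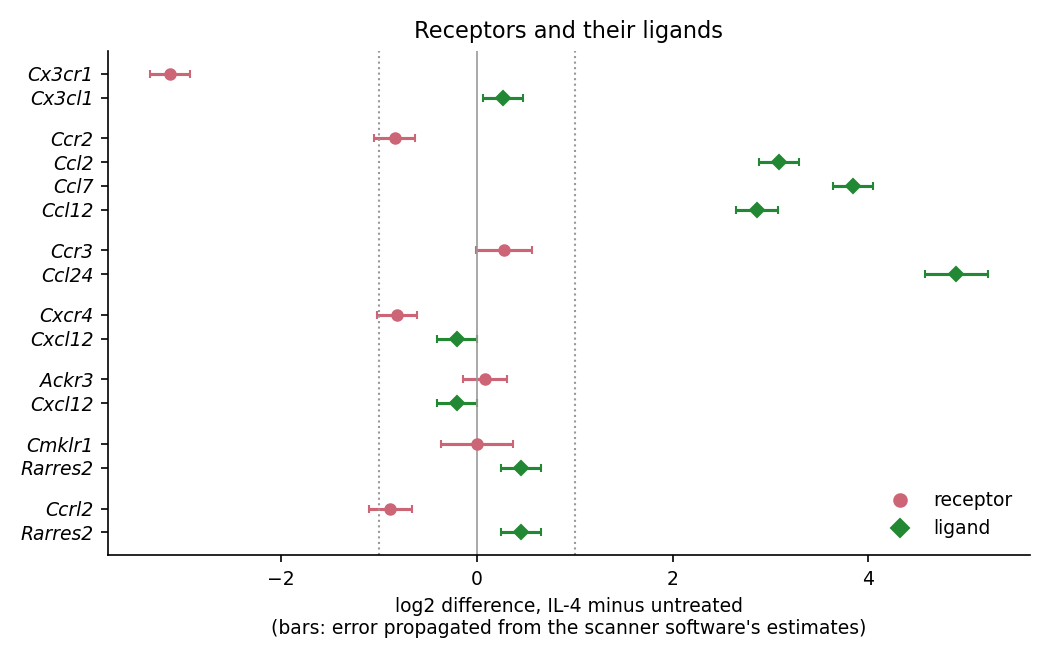
Log2 difference, IL-4 minus untreated, of receptors (red circles) and of ligands they bind (green diamonds), with the propagated software error as bars and dotted lines at 2-fold. Cxcl12 and Rarres2 appear with each of their receptors. The ligands shown for Ccr2 and Ccr3 lie between 2.86 and 4.90, the fractalkine Cx3cl1 is at 0.26, and Cx3cr1 is at -3.14. Not all listed ligands are shown.

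Downstream of the receptors, all 21 listed genes for Gi proteins, arrestins, receptor kinases, RGS proteins and their effectors were measured on both arrays, with a median difference of -0.16. Elmo1, which links chemokine receptors to Rac through the Dock proteins, was the 1 gene past 2-fold. It went from 104 ± 12.2 to 45.5 ± 7.70 (log2 difference -1.29, error 0.30), but the value reached -0.83, short of 2-fold, in other ways of processing. Gng2, a G protein gamma subunit, was at 12165 and 6988 (-0.90, error 0.20). Arrb2, an arrestin that ends and redirects receptor signalling, was at -0.57 and the related Arrb1 at -0.05. Among the RGS genes, which speed the shutting off of G proteins, Rgs1, Rgs2 and Rgs18 lay between -0.53 and -0.47, Rgs10 was at -0.28 and Rgs19 at 0.15. Gnai2 and Gnai3, the main Gi subunits of leukocytes, were at -0.05 and 0.34. No gene of the list was 2-fold higher. Over all genes measured on both arrays, 1.44% were lower and 2.31% higher by 2-fold or more, so the counts of this list are near those shares.

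The 5 genes whose log2 difference was nearest to that of Cx3cr1 were Fpr1, Sytl4, Slc40a1, Zfp939 and Cd5, as differences within 1 pair of arrays. Fpr1, the receptor for formylated bacterial peptides and itself a guide of phagocyte migration, went from 326 to 65.7 (-2.41). Slc40a1, the iron exporter ferroportin, went from 2263 to 469 (-2.37). Sytl4 was at -2.39, and Zfp939 and Cd5 were both at -2.28. The nearest of them was 0.73 above Cx3cr1 on the log2 scale.

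Markers of the cells that usually carry these receptors were read beside them. Of the 6 monocyte markers, 5 were on the array and 4 were measured on both arrays, with a median of -0.37, none past 2-fold by its brightest probe. The summed intensity over the 5 was 117457 untreated and 122629 with IL-4, most of it from Fn1 (101891 and 110595). Nr4a1, a factor needed by patrolling monocytes, was at -0.76 (1850 and 1172), F13a1 at -0.57 and Plac8 at -0.16. A dimmer F13a1 probe was past 2-fold, at -1.04 (110 and 57.5). Of 7 resident macrophage markers, 6 were measured on both arrays (median -0.05, summed intensity over all 7 of 45818 and 50257). Gpr34 fell from 434 to 183 (-1.34), P2ry12 was at 121 and 69.5 (-0.90), while Tmem119 and Siglech were both at 0.02 and Sall1 was well above background on neither array. Macrophage markers on both arrays numbered 6, of which 2 fell past 2-fold, Fcgr1 (2441 and 1118, -1.23) and Mertk (2263 and 1102, -1.14), although their values reached -0.92 and -0.83, short of 2-fold, in other ways of processing, while Itgam and Lyz2 were at -0.71 and -0.70 and Adgre1 and Csf1r at 0.17 and 0.09. The value for Itgam is that of its brightest probe, and its other probes were at -0.27 and -0.24. With each gene read from its brightest probe, the median of the 6 was -0.71. Of all genes measured on both arrays, 1.44% were lower and 2.31% higher by 2-fold or more. The summed intensity of the 6, most of it from Csf1r and Lyz2, was 281647 untreated and 267794 with IL-4. The part of these cells in the differences of Cx3cr1 and Ccr2 was not tested.

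The study's methods report high purity of the BMDMs by flow cytometry of macrophage markers, without naming the cultures used for the arrays. Markers of other cells were read all the same, and they varied from list to list. Signal of such a marker in RNA of a whole culture does not show that those cells were present. Of 7 dendritic cell markers, 3 were measured on both arrays, and Flt3, Cd209a, Xcr1 and Clec9a on neither. Of those 3, 2 were lower and 1 was higher, with a median of -0.48. The higher one was Itgax, at 0.72. Itgax, which macrophages also carry, made up most of that list's summed intensity of 16953 untreated and 27837 with IL-4. Among eosinophil markers Epx, Prg3 and Il5ra were well above background on neither array, Siglecf was at 772 and 817, and the 6 genes summed to 939 and 996. Mast cell and basophil markers summed to 371 and 213, with Fcer1a, Ms4a2 and Prss34 on neither array. Cpa3, a mast cell protease, was well above background in the untreated sample only (91.2 and 6.37, at least 3.51-fold lower, a bound of -1.81 on the log2 scale that shrank to -1.03 in other ways of processing), and Mcpt8 was at 170 and 109 (-0.74). The 5 neutrophil markers on the array were all well above background on both arrays, S100a9 at 26443 and 26347 and Elane at 511 and 467 among them. They summed to 34775 and 34428, and their differences lay between -0.23 and 0.30. Of 7 T and B cell markers 5 were on neither array, and Cd3e (343 and 296) and Cd4 (511 and 547) were the others. The part of these cells in the receptor differences was not tested.

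The size of the receptor differences was followed through 11 other ways of processing the same 2 arrays. Cx3cr1 was 7.11- to 9.48-fold lower in them, and had the lowest difference of all genes measured on both arrays in each. Ccr2, Cxcr4 and Ccrl2 kept their sign in 11 of 11, with log2 differences from -0.90 to -0.53, from -0.87 to -0.51 and from -0.94 to -0.58. Ccr3 and Ackr3 kept their sign in 10 of 11, and Ccr7 and Cmklr1 in 6 of 11.

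**Figure D5:**
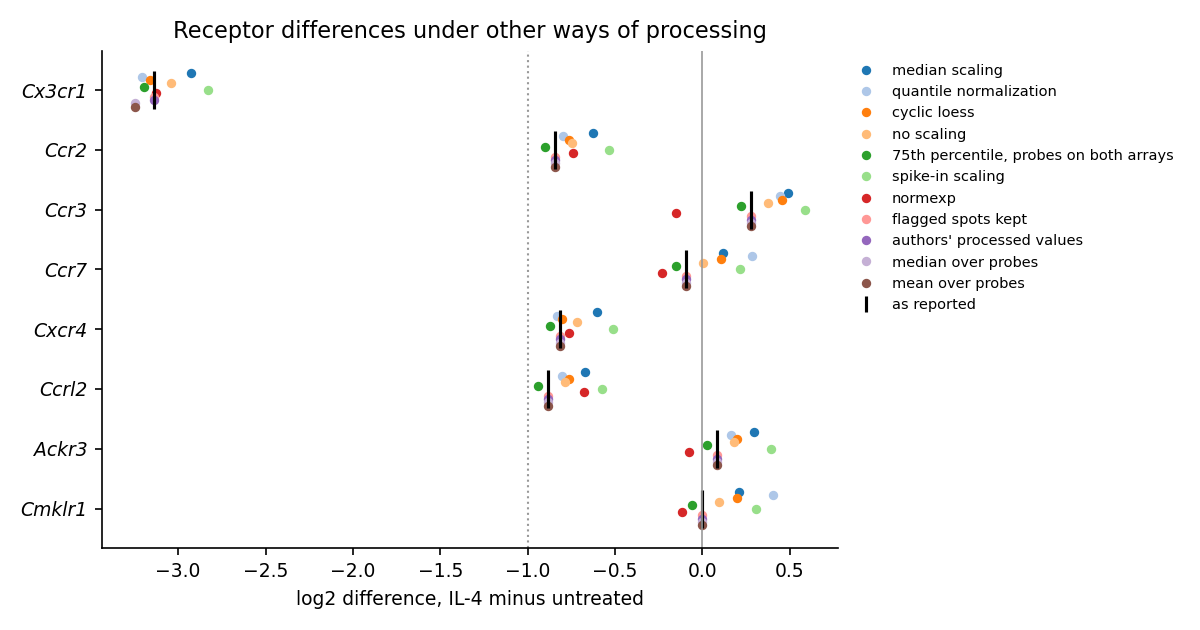
Log2 difference, IL-4 minus untreated, of the 8 receptors measured on both arrays under 11 other ways of processing (coloured points) and as reported (black bars), with a dotted line at a 2-fold fall. Cx3cr1 stays between -3.24 and -2.83, Ccr2, Cxcr4 and Ccrl2 stay below 0, and Ccr3, Ccr7, Ackr3 and Cmklr1 spread across 0.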

How the data were processed

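The authors hybridised Cy3-labelled cRNA made from total RNA of each sample to an Agilent 8 x 60K array and read it with Feature Extraction 10.10.1.1. The deposited scanner files hold the background-subtracted spot intensity, its error and its flags. The deposited value table holds log2 values that the authors had shifted by a separate value for each probe. The base of that shift is not given in the sources used here, and the differences between its columns matched those of the scanner files within 0.01 for 39422 of 39424 probes. Per the labels there was 1 array per condition, so the number of arrays limits the precision.

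Spots for controls and outlier spots were dropped, log2 intensity was averaged over the spots of a probe and each array's 75th percentile was subtracted. A gene was read from its brightest probe. A gene well above background on 1 array gave a bound against the lowest such signal of the other array. Of 39424 probes, 27229 were named through RefSeq accessions. The software error was propagated to the log2 difference, and a 2-fold change was counted. No test was run. Python 3.11.15, R 4.3.3 and limma 3.58.1 (quantile, cyclic loess, normexp with offset 50) were used. The counting was tested on simulated data with large changes in bright genes only. That simulation held no gene seen on 1 array, so it does not check the bounds or the counts of dim genes. Other scalings, background correction, filters and probe rules were tried. Named genes were the 9 receptors, list genes that passed 2-fold or are a ligand, partner or marker, and the 5 genes nearest to Cx3cr1, with chromosome neighbours added. The receptors and all lists were chosen with earlier results of these data known. A comparison of protein sequences was planned and not run. 1 further receptor and 1 marker of the lists enter the counts and are not reported here by name.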

Additional observations from a re-analysis of the deposited data

How the results depend on the processing

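The log2 difference of Cx3cr1 was -3.14, and moved to -2.92 with median scaling and -2.83 with spike-in scaling (7 bright control probes). Median and spike-in scaling also moved the median of all genes, from -0.01 to 0.20 and 0.30, and by construction shifted every gene alike. The number of genes at least 2-fold lower was 472, and became 299 with median scaling, 308 with quantile normalization, 251 with spike-in scaling, 153 with normexp, 870 with the authors' processed values, 184 among genes well above background on both arrays, 2077 with no filter and no bounds, and 156 at a log2 cutoff of 1.5. The number at least 2-fold higher was 431, and became 743 with spike-in scaling, 250 with normexp, 881 with no filter and no bounds, and 174 at a cutoff of 1.5. Genes higher made up 47.7% of those past 2-fold, and 67.7% with median scaling, 65.0% with quantile normalization, 59.7% with cyclic loess, 57.8% with no scaling and 74.7% with spike-in scaling. The share was lower, at 42.2%, with the 75th percentile taken only from probes that passed on each array, at 40.3% with the authors' values and at 29.8% with no filter, and higher, at 62.0%, with normexp and, at 61.6%, among genes on both arrays. The authors' values carry no bounds for genes seen on 1 array, which by construction lets more genes pass. Receptors of the group at least 2-fold lower numbered 1 under each alternative. Those at least 2-fold higher numbered 0, except that Ccr1 counted with no filter (1, at 1.27), where neither of its spots was well above background. Ccr1 has no value under the other alternatives.

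No paired analysis was possible because there is 1 array per condition, and for the same reason leaving out an array was not run. Dim signal limits Ccr7 and Cmklr1, with propagated errors of 0.43 and 0.37 on the log2 scale, and Ccr1, which has no difference.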
